A study of Drosophila melanogaster with 12 samples.

Results

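The glutathione S-transferase (GST) family was followed across 4 groups of fly brains. Its members were taken by name alone, as every gene in the count table whose symbol is Gst and a class letter D, E, O, S, T or Z. No measured value entered this rule, though earlier results of these data were known when it was chosen. The members were 35 of the 17562 genes listed: 11 of the Delta class, 14 Epsilon, 3 Omega, 1 Sigma, 4 Theta and 2 Zeta. Of the 35 members, 32 had enough counts to be tested, among 10738 tested genes in all. The 3 that did not were the Delta genes GstD4, GstD6 and GstD7, with 0 to 10, 0 to 5 and 0 to 11 counts per library.

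Libraries were made from polyadenylated RNA of male fly brains, with 3 labelled as biological replicates in each of the 4 groups. All flies carried DaGS, the daughterless-GeneSwitch driver, and all were fed RU486, the drug that switches this driver on, for 6 days. The driver's promoter is active in most tissues, so that the hairpin and the transgene were not limited to neurons. Control flies carried a hairpin against mCherry (BL35785), a gene that flies lack, or against Atx2 (BL44012), the fly ataxin-2 gene, whose RNA-binding protein takes part in stress granules and translation. TDP-43 flies carried the transgene TDP-43(52s), with either hairpin. TDP-43 is an RNA-binding protein found in aggregates in motor neuron disease. Crosses were kept at 25 °C and males were collected 1 to 2 days after eclosion. TDP-43 flies may differ from control flies in genetic background too, and the 2 cannot be told apart. The labels name no batch or date, and the p-values measure the spread between libraries so labelled. The groups are called control mCherry RNAi, TDP-43 mCherry RNAi, control Atx2 RNAi and TDP-43 Atx2 RNAi below.

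GSTs join the tripeptide glutathione to reactive compounds, which makes these less harmful and easier to export. The Delta and Epsilon classes, which expanded in insects, are best known for breaking down insecticides and plant toxins, and GstD1 is widely used as a reporter of the oxidative stress response run by the transcription factor Cnc. The Sigma enzyme handles aldehydes from damaged lipids, Omega enzymes reduce oxidised thiols, and Zeta enzymes are known from the breakdown of tyrosine. In the brain, glutathione chemistry is among the defences against oxidative damage.

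Libraries held 29184618 to 45104293 counts. Levels are CPM, that is counts relative to the TMM-scaled library total, and a level of 3 counts corresponds to 0.0645 to 0.104 CPM. Atx2 stood at 350.3 ± 11.4 CPM (SD, n = 3) in control mCherry RNAi, 287 ± 18.5 in TDP-43 mCherry RNAi, 159.8 ± 7.17 in control Atx2 RNAi and 154 ± 9.29 in TDP-43 Atx2 RNAi. The neuronal marker elav (257 to 322 CPM) and the glial marker repo (107 to 151 CPM) were present in every library. Tests are edgeR's quasi-likelihood F-test in a model of all 12 libraries, adjusted by the Benjamini-Hochberg method over all tested genes. A gene was called at an adjusted p below 0.05. Signed differences are log2 fold changes with their SE.

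Most GST transcripts in the brain came from a few genes. On a scale per length (CPM per kb of exon), which allows genes to be compared, GstD1 was the most abundant in control mCherry RNAi at 218 ± 27.1 (SD, n = 3), followed by GstD9 at 152 ± 3.87 and GstE2 at 81.4 ± 6.57. GstD1 lay above GstD9, and GstD9 above GstE2, in all 3 libraries without overlap. From GstE2 on, the ranges of GstE2, GstE12 (69.8 ± 13.4), GstE1 (54.5 ± 4.15), GstD3 (47.8 ± 7.07) and GstE6 (39.3 ± 2.69) each overlapped that of the next, so that their order is not fixed by these libraries. The leading genes of the other classes were GstS1 at 30.0 ± 3.89, GstO2 at 19.9 ± 0.542, GstT1 at 16.8 ± 1.46 and GstZ2 at 9.71 ± 1.12 CPM per kb. At the other end, the tested genes GstD2, GstD5, GstD8, GstE4, GstE5, GstE10 and GstE14 averaged below 1 CPM per kb in control mCherry RNAi.

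The summed level of the family was lowest in TDP-43 Atx2 RNAi. Its 3 libraries held 542, 523 and 522 CPM per kb, while the control mCherry RNAi libraries held 879, 742 and 887. TDP-43 mCherry RNAi libraries held 625, 703 and 885, and control Atx2 RNAi libraries 858, 801 and 857. All 3 TDP-43 Atx2 RNAi libraries thus lay below the 9 others, whose groups overlapped, and no test was run on the sum. The Delta class made up 51.0% ± 2.72 of the sum in control mCherry RNAi and 54.2% ± 0.748 in control Atx2 RNAi. In TDP-43 mCherry RNAi and TDP-43 Atx2 RNAi it made up 38.8% ± 3.03 and 38.6% ± 1.38. GstD9 alone went from 18.3% ± 1.41 of the family in control mCherry RNAi to 4.43% ± 0.696 in TDP-43 mCherry RNAi, while the share of GstD1 was 26.1% ± 1.96 and 27.0% ± 1.58.

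**Figure D1:**
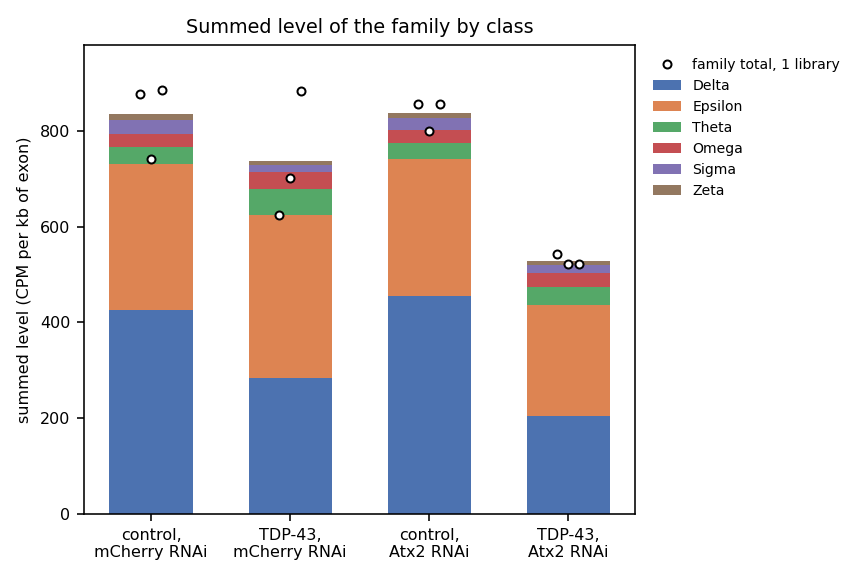
Summed level of the 35 GST genes in CPM per kb of exon (vertical axis) in the 4 groups, with bars stacked by class as means of 3 libraries and open circles for the family total in each library. The TDP-43 Atx2 RNAi circles lie at 522 to 542, below those of the other 3 groups, and the Delta part of the bar is smaller in both TDP-43 groups.

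The first comparison, TDP-43 mCherry RNAi against control mCherry RNAi, asks what TDP-43 changes when the hairpin is the control. GSTs moved in both directions. GstD2, GstD5, GstD10, GstE11, GstO3, GstT3 and GstT4 rose, most of them from low levels, and the abundant genes GstD9, GstE2, GstS1, GstD3 and GstZ2 fell. By edgeR's test 12 of 32 members, or 37.5%, were called, beside 37.6% of all tested genes (4035 of 10738). The 7 that rose were 21.9% of the members, beside 19.2% of all genes, and the 5 that fell were 15.6%, beside 18.3%. The share of members called was therefore near that of genes in general. The median log2 fold change was 0.08 over the members and 0.03 over all genes. The median absolute value was 0.63 beside 0.24, with genes not matched for level and some members at few counts. A like excess, 0.26 beside 0.13, stood for Atx2 RNAi without TDP-43, where 1 member was called. The larger median is therefore not read as a stronger response of the family to TDP-43.

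The second comparison, TDP-43 Atx2 RNAi against TDP-43 mCherry RNAi, asks what Atx2 RNAi changes in flies that express TDP-43. It shares the TDP-43 mCherry RNAi libraries with the first comparison, where they enter with the opposite sign, so that the directions of the calls in the 2 comparisons are not independent. GstD1, GstD2, GstD5, GstD10, GstE1, GstE6 and GstE8 fell, and GstD11 rose. The 8 called members were 25% of the 32, beside 14.0% of all tested genes. The 7 that fell were 21.9% of the members, beside 6.36% of all genes, and the 1 that rose was 3.12%, beside 7.68%. The median log2 fold change was -0.33 over the members and -0.02 over all genes, and -0.33 also without GstD5. The count of called members fell to 4 without replicate 2 of TDP-43 Atx2 RNAi. That of all genes fell too, from 1508 of 10738 to 746. When only these 2 groups were fitted, 4 members and 891 genes were called. Without the 2 libraries highest in gut markers, a setting added after the data were seen, 5 members and 480 genes were called.

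Without TDP-43, Atx2 RNAi called GstD11 alone among the GSTs. That is 3.12% of the members, beside 6.17% of all tested genes, with 3.24% of all genes called higher and 2.93% called lower. With Atx2 RNAi in both groups, TDP-43 called 9 of 32 members (28.1%), beside 22.5% of all genes. GstD10 and GstD11 rose, which is 6.25% of members beside 12.1% of all genes, and GstD1, GstD3, GstD9, GstE2, GstE3, GstE6 and GstS1 fell, which is 21.9% beside 10.4%. TDP-43 and Atx2 RNAi together, set against control mCherry RNAi, called 12 members (37.5%), beside 28.0% of all genes. Of these, 3 rose (9.38% beside 14.6%) and 9 fell (28.1% beside 13.4%). The interaction, which tests whether the TDP-43 effect differed between the hairpins, called GstD2 alone, 3.12% of members beside 0.428% of all genes.

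**Figure D2:**
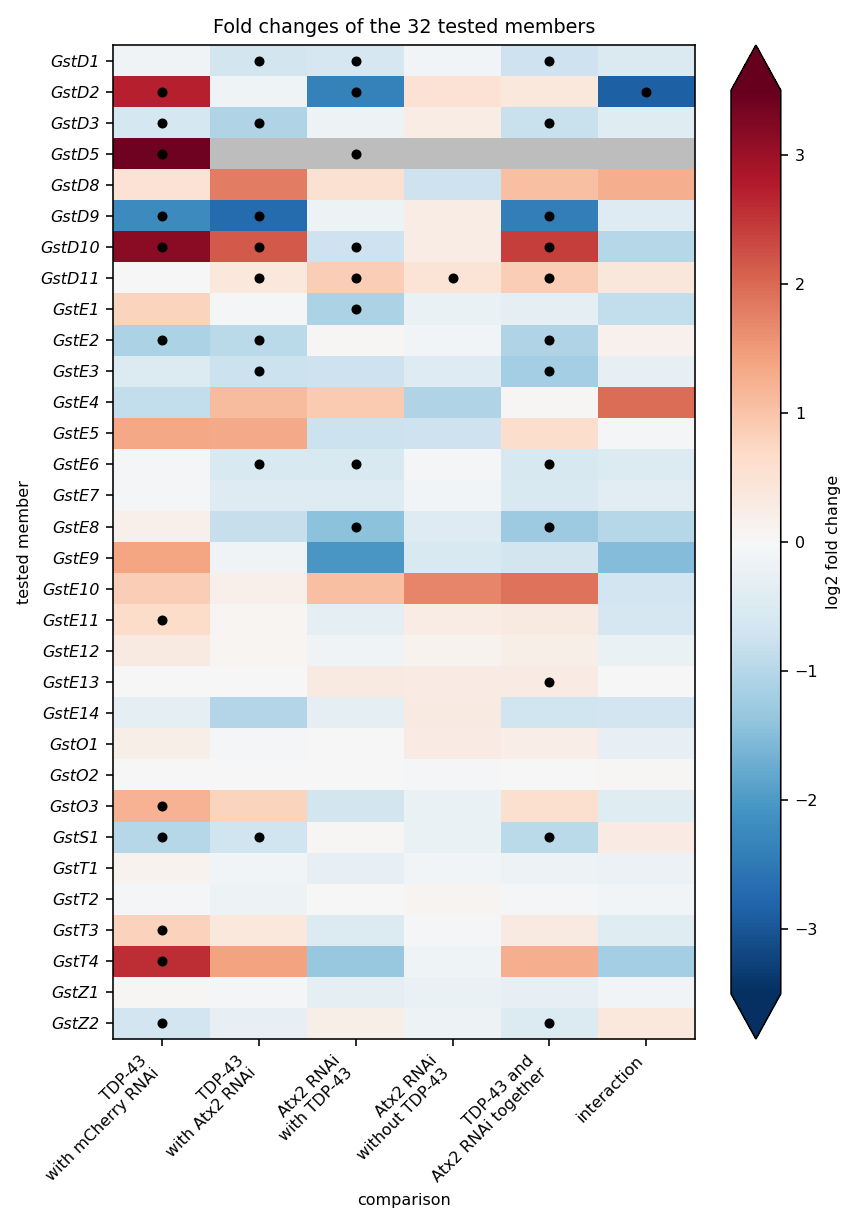
Log2 fold change (colour, red higher and blue lower) of the 32 tested members (rows) in the 6 comparisons (columns). Black dots mark calls at an edgeR adjusted p below 0.05, and grey cells mark GstD5 where a group was at or below 3 counts per library and no fold is given. The first column holds dots for 7 rises and 5 falls, and the column for Atx2 RNAi with TDP-43 for 1 rise and 7 falls.

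The Delta class lies in a single cluster of 11 genes on chromosome arm 3R, from 12364776 to 12385624 in dm6, a span of 20849 bp. GstD10, GstD9 and GstD1 stand side by side on the minus strand, with 427 bp between GstD10 and GstD9 and 252 bp between GstD9 and GstD1. The other 8 follow on the plus strand, and GstD2 starts 2702 bp beyond GstD1. Neighbours in this cluster had unlike values. GstD9 fell with TDP-43, GstD10 next to it rose, and GstD1 on its other side was not called. These 3 genes have 2 exons each, GstD11 has 4 and the other Delta genes have 1. How reads from near-identical copies were assigned is not stated in the sources used here, so that a value may hold reads of a copy.

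GstD9 (3R, 12366163 to 12367564) stood at 120.1, 116 and 122 CPM in the control mCherry RNAi libraries and at 25.2, 24.4 and 26.1 CPM in TDP-43 mCherry RNAi. It stood at 142, 136 and 154 CPM in control Atx2 RNAi and at 21.8, 18.9 and 26.4 CPM in TDP-43 Atx2 RNAi. Every library with TDP-43 was below every library without it, under either hairpin. GstD9 fell 4.73-fold with mCherry RNAi (-2.24 ± 0.10, edgeR adjusted p = 2.50e-08) and 6.43-fold with Atx2 RNAi (-2.68 ± 0.10, edgeR adjusted p = 7.41e-09). The interaction was not called by edgeR (-0.44 ± 0.13, edgeR adjusted p = 0.160) and was called by DESeq2 (adjusted p = 0.0265). In TDP-43 flies the difference with Atx2 RNAi was -0.17 ± 0.10 (edgeR adjusted p = 0.262).

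GstD3 (3R, 12373068 to 12373813) has the shortest coding sequence of the class, 597 bases beside 627 to 729 in the others. It stood at 40.9, 30.4 and 35.7 CPM in control mCherry RNAi and at 24.3, 21.0 and 24.5 CPM in TDP-43 mCherry RNAi. With the Atx2 hairpin it stood at 40.7, 44.1 and 43.2 CPM in control flies and at 20.6, 19.7 and 21.5 CPM in TDP-43 flies. As with GstD9, the libraries with TDP-43 were all lower than those without it. GstD3 fell by 0.62 ± 0.10 on the log2 scale with mCherry RNAi (edgeR adjusted p = 4.95e-04) and by 1.05 ± 0.10 with Atx2 RNAi (edgeR adjusted p = 1.47e-05).

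GstD1 (3R, 12367817 to 12369268), whose enzyme can break down the insecticide DDT, was low in a single group. Its libraries stood at 208, 163 and 181 CPM in control mCherry RNAi, at 150.0, 150.1 and 203 in TDP-43 mCherry RNAi, at 179, 164 and 173 in control Atx2 RNAi and at 110.2, 114 and 108 in TDP-43 Atx2 RNAi. The first 3 groups overlapped, and the fourth lay below all of them. Atx2 RNAi lowered GstD1 in TDP-43 flies by 0.60 ± 0.12 (edgeR adjusted p = 0.00794), and TDP-43 lowered it with Atx2 RNAi by 0.64 ± 0.12 (edgeR adjusted p = 0.00306). Neither treatment called it alone, with -0.13 ± 0.12 for TDP-43 with mCherry RNAi (edgeR adjusted p = 0.394) and -0.10 ± 0.12 for Atx2 RNAi without TDP-43 (edgeR adjusted p = 0.711). The interaction was not called by edgeR (-0.50 ± 0.17, edgeR adjusted p = 0.198) and was called by DESeq2 (adjusted p = 0.0320). Without replicate 3 of TDP-43 mCherry RNAi, the library at 203 CPM, the fall with TDP-43 alone was called too (-0.30, edgeR adjusted p = 0.0147).

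**Figure D3:**
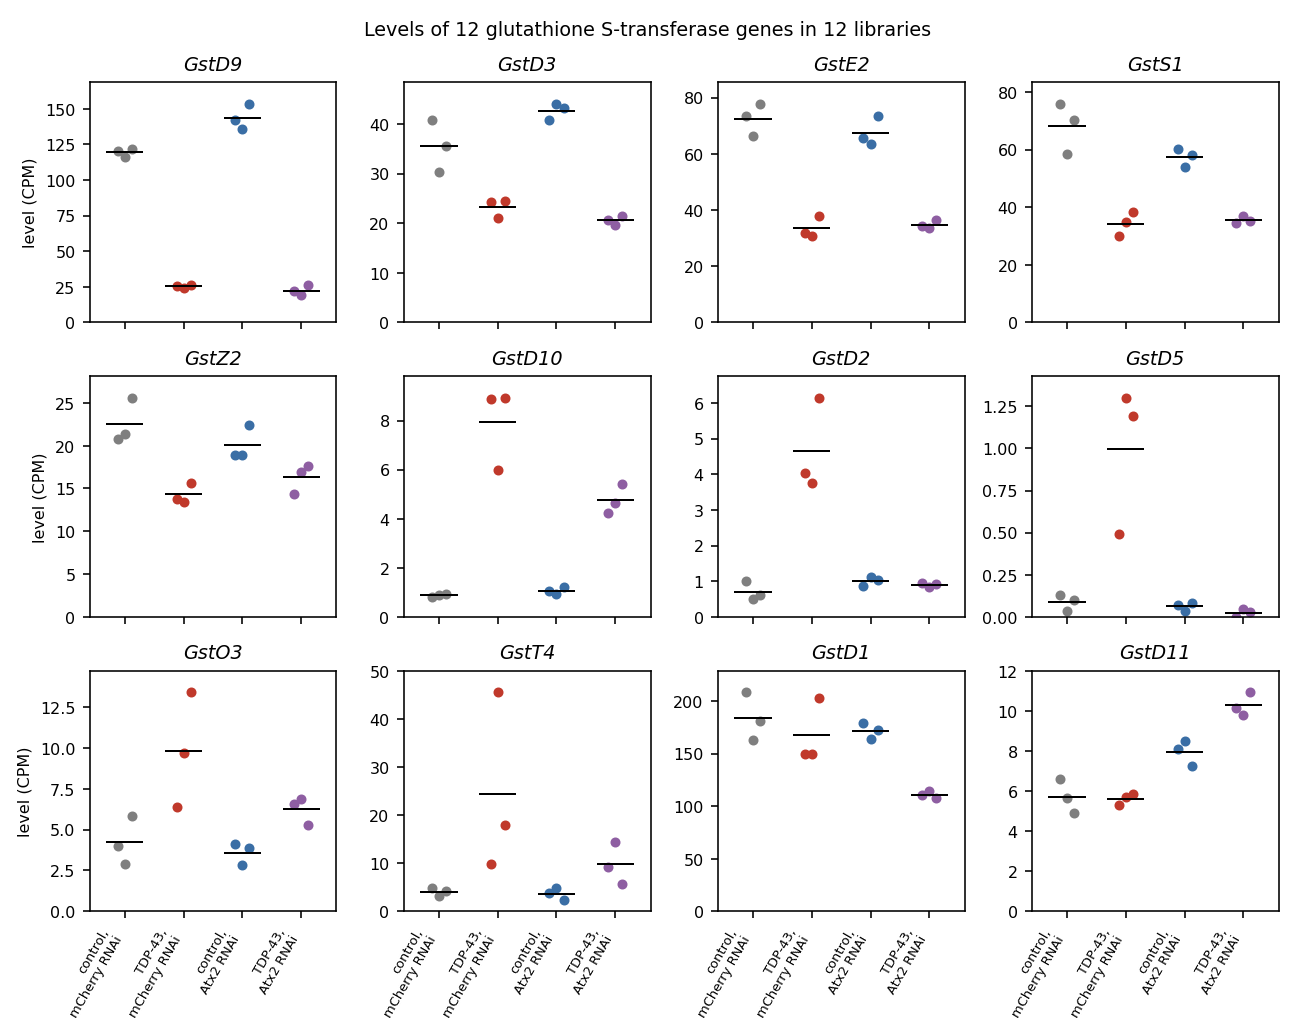
Level in CPM (vertical axes, each starting at 0) of 12 GST genes in the 12 libraries, with a point per library and a line at the mean of each group of 3. GstD9, GstD3, GstE2 and GstS1 are low in both TDP-43 groups, GstD2 and GstD5 are high in TDP-43 mCherry RNAi only, and GstD1 is low in TDP-43 Atx2 RNAi only.

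The low-level Delta genes GstD10, GstD2 and GstD5 rose with TDP-43 and differed in how they stood with Atx2 RNAi. GstD10 (3R, 12364776 to 12365735) stood at 0.796, 0.904 and 0.943 CPM in control mCherry RNAi and at 8.88, 5.97 and 8.92 CPM in TDP-43 mCherry RNAi. It stood at 1.05, 0.940 and 1.20 CPM in control Atx2 RNAi and at 4.23, 4.63 and 5.42 CPM in TDP-43 Atx2 RNAi. The TDP-43 libraries were above all others, and those with Atx2 RNAi lay below those with mCherry RNAi without overlap. The rise was 8.96-fold with mCherry RNAi (3.16 ± 0.20, edgeR adjusted p = 4.19e-07) and 4.46-fold with Atx2 RNAi (2.16 ± 0.20, edgeR adjusted p = 1.16e-05). The drop between the TDP-43 groups (-0.74 ± 0.18, edgeR adjusted p = 0.0214) was not called without replicate 1 or 3 of TDP-43 mCherry RNAi (edgeR adjusted p = 0.0596 and 0.0824) or replicate 1 or 2 of TDP-43 Atx2 RNAi (edgeR adjusted p = 0.0765 and 0.0838), nor when only these 2 groups were fitted (edgeR adjusted p = 0.0600). The interaction for GstD10 was -1.01 ± 0.27 (edgeR adjusted p = 0.122).

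GstD2 (3R, 12371971 to 12372704) was high in TDP-43 mCherry RNAi and low in the other 3 groups. It stood at 0.995, 0.502 and 0.612 CPM in control mCherry RNAi and at 4.04, 3.74 and 6.14 CPM in TDP-43 mCherry RNAi. It stood at 0.856, 1.11 and 1.04 CPM in control Atx2 RNAi and at 0.957, 0.831 and 0.929 CPM in TDP-43 Atx2 RNAi. The last of these groups overlapped both control groups. GstD2 rose 6.59-fold with TDP-43 and mCherry RNAi (2.72 ± 0.30, edgeR adjusted p = 3.15e-05), and was 5.11-fold lower with Atx2 RNAi in TDP-43 flies (-2.35 ± 0.29, edgeR adjusted p = 4.49e-04). With Atx2 RNAi in both groups the TDP-43 difference was -0.14 ± 0.29 (edgeR adjusted p = 0.770). The interaction, -2.86 ± 0.41 on the log2 scale, was called (edgeR adjusted p = 0.0137). It was not called without replicate 2 or 3 of TDP-43 Atx2 RNAi (edgeR adjusted p = 0.0645 and 0.0542), and DESeq2 gave no adjusted p for it.

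GstD5 (3R, 12375733 to 12376572) had few reads, with 4, 1 and 4 counts in control mCherry RNAi and 23, 42 and 42 in TDP-43 mCherry RNAi. It had 3, 1 and 3 counts in control Atx2 RNAi and 0, 2 and 1 in TDP-43 Atx2 RNAi. TDP-43 mCherry RNAi was above all other libraries, and the remaining 3 groups overlapped. Scaled for depth, its 107 summed counts were 10.4 times the 9 of control mCherry RNAi (95% exact interval 5.25 to 23.3, edgeR adjusted p = 0.00139). They were 35.4 times the 3 of TDP-43 Atx2 RNAi (95% exact interval 11.8 to 175, edgeR adjusted p = 0.00130). These intervals cover counting error only. The interaction was not called (edgeR adjusted p = 0.102).

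GstD11 (3R, 12383336 to 12385624), at the far end of the cluster, was the only member called higher with Atx2 RNAi. It stood at 6.60, 5.66 and 4.90 CPM in control mCherry RNAi and at 5.29, 5.72 and 5.88 CPM in TDP-43 mCherry RNAi. With the Atx2 hairpin it stood at 8.13, 8.53 and 7.25 CPM in control flies and at 10.2, 9.80 and 10.9 CPM in TDP-43 flies. The 6 libraries with Atx2 RNAi were above the 6 with mCherry RNAi. The rise in TDP-43 flies was 0.87 ± 0.12 (edgeR adjusted p = 0.00108). In control flies it was 0.48 ± 0.12 (edgeR adjusted p = 0.0392), with edgeR adjusted p from 0.0246 to 0.143 when each library was left out, and 0.0965 when only these 2 groups were fitted. The rise with TDP-43 under Atx2 RNAi (0.37 ± 0.12, edgeR adjusted p = 0.0456) was as fragile, with edgeR adjusted p from 0.0295 to 0.159 over the libraries left out and 0.0567 with the replicate number as a block.

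The genes just beyond GstD11 also stood higher with Atx2 RNAi, whereas those beyond GstD10 did not. CG34402, 625 bp away, was higher with Atx2 RNAi both with TDP-43 (0.92, edgeR adjusted p = 3.20e-05) and without it (0.90, edgeR adjusted p = 4.29e-05). Cyp9f3, 10383 bp away and a cytochrome P450 gene, was higher with TDP-43 (0.89, edgeR adjusted p = 1.04e-04) and without it (0.95, edgeR adjusted p = 8.60e-05). CG33098 between them was higher in TDP-43 flies (1.87, edgeR adjusted p = 0.00146) and stood at 0.95 in control flies (edgeR adjusted p = 0.0630). On the other side, CG4115 (-0.59, edgeR adjusted p = 0.597) and MBD-R2 (0.08, edgeR adjusted p = 0.487) were not called in TDP-43 flies, and CG10038 was lower (-0.29, edgeR adjusted p = 0.0219). The Atx2 hairpin and its control come from different fly stocks, and a difference of the stocks cannot be told apart from the effect of the hairpin. GstD8, the last tested gene of the class, had 0 to 31 counts per library and was not called in any comparison.

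**Figure D4:**
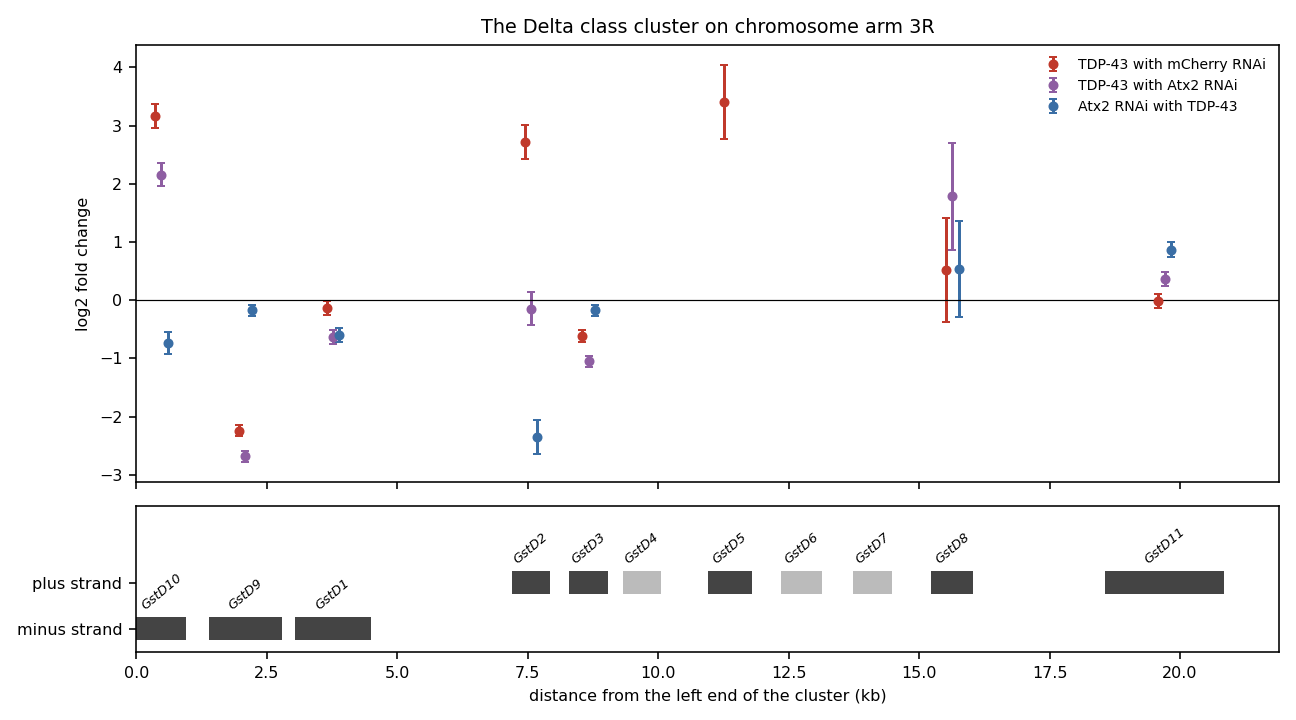
Upper panel, log2 fold change (points, bars are ± SE) of the tested Delta genes in 3 comparisons against the position of each gene in the cluster (kb). Lower panel, the genes to scale on their strands, with tested genes dark and GstD4, GstD6 and GstD7 grey. GstD10 at the left end lies at 3.16 and GstD9 next to it at -2.24 for TDP-43 with mCherry RNAi, and GstD5 is drawn for that comparison only.

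Of the 14 Epsilon genes, all of them tested, 10 lie in a cluster on 2R from 18396638 to 18409835 in dm6. In it, exons of GstE1 and GstE10 overlap on opposite strands, as do those of GstE9 and imd. GstE2 (2R, 18399486 to 18400375) was the one that moved most steadily. It stood at 73.3, 66.2 and 77.8 CPM in control mCherry RNAi and at 31.9, 30.9 and 37.8 CPM in TDP-43 mCherry RNAi. With the Atx2 hairpin it stood at 65.7, 63.4 and 73.3 CPM in control flies and at 34.2, 33.6 and 36.6 CPM in TDP-43 flies. Libraries with TDP-43 were all lower, and the 2 hairpins overlapped both with and without TDP-43. GstE2 fell by 1.11 ± 0.09 with mCherry RNAi (edgeR adjusted p = 2.51e-06) and by 0.95 ± 0.09 with Atx2 RNAi (edgeR adjusted p = 1.25e-05), and Atx2 RNAi gave 0.05 ± 0.09 in TDP-43 flies (edgeR adjusted p = 0.732).

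GstE1, beside GstE2 and 262 bp from it, was not called by edgeR with TDP-43 under mCherry RNAi (0.78 ± 0.29, edgeR adjusted p = 0.0621). It was called by DESeq2 (adjusted p = 0.0369), and by edgeR without replicate 1 or 2 of TDP-43 mCherry RNAi (edgeR adjusted p = 0.0231 and 0.0487). It stood at 46.1, 41.5 and 48.2 CPM in control mCherry RNAi, at 53.0, 59.2 and 120.2 in TDP-43 mCherry RNAi, at 38.7, 35.0 and 40.9 in control Atx2 RNAi and at 44.7, 31.4 and 32.7 in TDP-43 Atx2 RNAi. Replicate 3 of TDP-43 mCherry RNAi was far above the rest. GstE1 was lower with Atx2 RNAi in TDP-43 flies (-1.10 ± 0.29, edgeR adjusted p = 0.0378). Without that replicate the GstE1 difference was -0.63 and still called. It was not called in 11 of 19 alternatives, with edgeR adjusted p from 0.0174 to 0.135 over the libraries left out.

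GstE3, GstE6 and GstE8, of the same cluster, were lowest in TDP-43 Atx2 RNAi. GstE3 stood at 17.1, 11.7 and 19.0 CPM in control mCherry RNAi, at 8.78, 10.5 and 15.4 in TDP-43 mCherry RNAi, at 14.6, 10.8 and 9.58 in control Atx2 RNAi and at 7.56, 6.48 and 6.84 in TDP-43 Atx2 RNAi. The fourth group lay below the other 3, which overlapped. GstE3 fell with both treatments together (-1.20 ± 0.24, edgeR adjusted p = 0.00363). It also fell with TDP-43 under Atx2 RNAi (-0.74 ± 0.24, edgeR adjusted p = 0.0460), with edgeR adjusted p from 0.0170 to 0.156 over the libraries left out.

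GstE6 stood at 30.4, 27.2 and 30.9 CPM in control mCherry RNAi, at 23.3, 25.9 and 37.2 in TDP-43 mCherry RNAi, at 27.4, 25.9 and 32.7 in control Atx2 RNAi and at 21.3, 19.1 and 19.4 in TDP-43 Atx2 RNAi. Again the fourth group alone stood apart. GstE6 fell with Atx2 RNAi in TDP-43 flies (-0.53 ± 0.15, edgeR adjusted p = 0.0436, and 0.0123 to 0.141 over the libraries left out) and with both treatments together (-0.57 ± 0.15, edgeR adjusted p = 0.0185, and 8.33e-04 to 0.0624). Without replicate 3 of TDP-43 mCherry RNAi the first of these was -0.30. With TDP-43 under Atx2 RNAi it fell too (-0.53 ± 0.15, edgeR adjusted p = 0.0324, and 0.00201 to 0.119).

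GstE8 stood at 2.65, 2.24 and 4.34 CPM in control mCherry RNAi, at 1.59, 4.64 and 4.20 in TDP-43 mCherry RNAi, at 2.40, 2.12 and 2.18 in control Atx2 RNAi and at 1.48, 1.07 and 1.26 in TDP-43 Atx2 RNAi. The fourth group lay below every other library. GstE8 fell with Atx2 RNAi in TDP-43 flies (-1.45 ± 0.37, edgeR adjusted p = 0.0232, and 0.00170 to 0.0951 over the libraries left out) and with both treatments together (-1.28 ± 0.37, edgeR adjusted p = 0.0222, and 0.00245 to 0.0824). The other Epsilon genes of the cluster, GstE4, GstE5, GstE7, GstE9 and GstE10, were not called in any comparison. For GstE9 with Atx2 RNAi in TDP-43 flies the groups did not overlap (-2.04 ± 0.73, edgeR adjusted p = 0.106). DESeq2 called this difference (adjusted p = 0.0261). The GstE9 rise with TDP-43 under mCherry RNAi was called without replicate 3 of control mCherry RNAi (edgeR adjusted p = 0.0365). Of the genes inside and around the cluster, imd, BomS5, BomS6, Idgf5, Dp1 and CG5174 were not called in any comparison. With the replicate number as a block CG5174 was called higher with Atx2 RNAi in TDP-43 flies (0.13, edgeR adjusted p = 0.0165). PIG-O was higher with TDP-43 under mCherry RNAi (0.21, edgeR adjusted p = 0.0231).

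Of the 4 Epsilon genes outside the cluster, GstE12 was the most abundant per length in every group. It stood at 96.8, 79.2 and 117 CPM in control mCherry RNAi, at 115, 119 and 129 in TDP-43 mCherry RNAi, at 117, 103 and 96.2 in control Atx2 RNAi and at 111, 114 and 111 in TDP-43 Atx2 RNAi. The groups overlapped for the first comparison, and GstE12 was not called there by edgeR (0.31 ± 0.12, edgeR adjusted p = 0.0667). It was called by DESeq2 (adjusted p = 0.0254), and by edgeR without replicate 3 of control mCherry RNAi (edgeR adjusted p = 0.00324). GstE11 stood at 2.49, 1.54 and 2.07 CPM in control mCherry RNAi and at 2.41, 3.84 and 3.27 CPM in TDP-43 mCherry RNAi. Its call there (0.64 ± 0.23, edgeR adjusted p = 0.0428) is the only GST call whose groups overlapped, and leaving out each library gave edgeR adjusted p from 0.0158 to 0.163.

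GstE13 stood at 13.3, 13.8 and 11.9 CPM in control mCherry RNAi and at 16.2, 16.7 and 14.8 CPM in TDP-43 Atx2 RNAi. It stood at 14.7, 12.6 and 11.5 CPM in TDP-43 mCherry RNAi and at 15.3, 15.1 and 16.9 CPM in control Atx2 RNAi. All 6 libraries with the Atx2 hairpin were above all 6 with the mCherry hairpin. Within a hairpin, the groups with and without TDP-43 overlapped. The rise with both treatments was small (0.29 ± 0.10, edgeR adjusted p = 0.0478) and was not called in 13 of 19 alternatives, with edgeR adjusted p from 0.0296 to 0.194 over the libraries left out. GstE14, known as noppera-bo and needed to make the moulting hormone ecdysone, had 5 to 44 counts per library and was not called in any comparison.

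GstS1 (2R, 17093246 to 17099501), the only Sigma gene and an enzyme known from flight muscle, stood at 75.9, 58.6 and 70.1 CPM in control mCherry RNAi and at 29.9, 34.7 and 38.2 CPM in TDP-43 mCherry RNAi. With the Atx2 hairpin it stood at 60.3, 54.0 and 58.3 CPM in control flies and at 34.6, 37.0 and 35.2 CPM in TDP-43 flies. The libraries with TDP-43 were all lower. GstS1 fell 1.99-fold with mCherry RNAi (-0.99 ± 0.10, edgeR adjusted p = 1.90e-05) and 1.62-fold with Atx2 RNAi (-0.69 ± 0.10, edgeR adjusted p = 4.32e-04). Atx2 RNAi gave 0.05 ± 0.10 in TDP-43 flies (edgeR adjusted p = 0.771).

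GstZ2 (3R, 9456815 to 9460652) stood at 20.8, 21.3 and 25.6 CPM in control mCherry RNAi and at 13.8, 13.4 and 15.7 CPM in TDP-43 mCherry RNAi. With the Atx2 hairpin it stood at 18.9, 18.9 and 22.4 CPM in control flies and at 14.4, 17.0 and 17.7 CPM in TDP-43 flies. The TDP-43 libraries were lower under either hairpin, with less distance under the Atx2 hairpin. The fall was called with mCherry RNAi (-0.66 ± 0.11, edgeR adjusted p = 7.40e-04), and with Atx2 RNAi the value was -0.29 ± 0.11 (edgeR adjusted p = 0.0809), which was called with the replicate number as a block (edgeR adjusted p = 0.0109). The interaction was not called (0.36 ± 0.16, edgeR adjusted p = 0.298). GstZ1, 268 bp from it, ran from 1.45 to 2.60 CPM over all libraries and was not called in any comparison.

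Of the 3 Omega genes, GstO2 was the flattest member of the family, with 31.1 to 35.7 CPM over all 12 libraries and a difference of -0.02 ± 0.06 in the first comparison (edgeR adjusted p = 0.866). GstO1 ran from 2.65 to 4.34 CPM and was not called either. GstO3, on 3L from 8518885 to 8520295, had 3.98, 2.91 and 5.81 CPM in control mCherry RNAi and 6.37, 9.71 and 13.4 CPM in TDP-43 mCherry RNAi. It stood at 4.11, 2.82 and 3.87 CPM in control Atx2 RNAi and at 6.57, 6.91 and 5.26 CPM in TDP-43 Atx2 RNAi. Libraries with TDP-43 were above those without it within each hairpin. The rise was 2.31-fold with mCherry RNAi (1.21 ± 0.30, edgeR adjusted p = 0.00813) and was not called when only these 2 groups were fitted (edgeR adjusted p = 0.0544). With Atx2 RNAi the rise was 0.79 ± 0.30 (edgeR adjusted p = 0.0809). It was called there in 5 of 19 alternatives, among them DESeq2 (adjusted p = 0.0393) and the fit of only these 2 groups (edgeR adjusted p = 0.0118).

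The Theta genes GstT1 and GstT2 stood at 14.6 to 19.9 and 8.52 to 11.5 CPM and were not called in any comparison. With the replicate number as a block, GstT1 was called lower with Atx2 RNAi in TDP-43 flies (-0.29 ± 0.08, edgeR adjusted p = 0.0355). GstT4 (X, 13404749 to 13409323) stood at 4.91, 3.08 and 4.21 CPM in control mCherry RNAi and at 9.85, 45.6 and 18.0 CPM in TDP-43 mCherry RNAi. It stood at 3.85, 4.87 and 2.30 CPM in control Atx2 RNAi and at 9.13, 14.5 and 5.65 CPM in TDP-43 Atx2 RNAi. The TDP-43 libraries were above the controls, and replicate 2 was the highest in each TDP-43 group. GstT4 rose with mCherry RNAi (2.59 ± 0.60, edgeR adjusted p = 0.00919), and without replicate 2 of TDP-43 mCherry RNAi the rise was 1.78 (edgeR adjusted p = 0.0163). With Atx2 RNAi the value was 1.41 ± 0.59 (edgeR adjusted p = 0.125).

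GstT3 (X, 20467455 to 20469796) stood at 3.05, 3.88 and 4.59 CPM in control mCherry RNAi and at 9.10, 5.23 and 5.74 CPM in TDP-43 mCherry RNAi. Under Atx2 RNAi it stood at 4.83, 3.48 and 2.86 CPM in control flies and at 6.02, 3.99 and 4.49 CPM in TDP-43 flies. The first 2 groups did not overlap, and the last 2 did. The rise of GstT3 between the first 2 groups (0.80 ± 0.26, edgeR adjusted p = 0.0328) was not called without replicate 1 or 2 of control mCherry RNAi (edgeR adjusted p = 0.115 and 0.0767) or replicate 1 of TDP-43 mCherry RNAi (0.51, edgeR adjusted p = 0.130), nor when only these 2 groups were fitted (edgeR adjusted p = 0.0649).

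Markers of other tissues moved with some of these values. In bulk RNA, fewer cells of a type and less RNA per cell cannot be told apart. Of 12 fat body markers, 6 rose and 0 fell with TDP-43 under mCherry RNAi, beside 19.2% and 18.3% of all genes. With Atx2 RNAi in TDP-43 flies 0 rose and 4 fell, beside 7.68% and 6.36%. There GstD1, GstD2, GstD5, GstD10, GstE1, GstE6 and GstE8 fell. With TDP-43 under Atx2 RNAi 5 markers rose and 1 fell, beside 12.1% and 10.4%. In that comparison GstD10 rose, GstD1 and GstE6 fell, and GstD2, GstD5, GstE1 and GstE8 were not called. Their summed level was 1950 to 3582 CPM in control mCherry RNAi, 3471 to 12190 in TDP-43 mCherry RNAi, 1902 to 2275 in control Atx2 RNAi and 2980 to 5798 in TDP-43 Atx2 RNAi. In TDP-43 mCherry RNAi the sums were 3471, 9285 and 12190 CPM in replicates 1, 2 and 3, where GstO3 stood at 6.37, 9.71 and 13.4 CPM and GstE1 at 53.0, 59.2 and 120.2 CPM. GstD10, at 8.88, 5.97 and 8.92 CPM, and GstD2, at 4.04, 3.74 and 6.14 CPM, were lowest in replicate 2 there. GstE6, at 23.3, 25.9 and 37.2 CPM, and GstD1, at 150.0, 150.1 and 203 CPM, were highest in replicate 3. GstE8, at 1.59, 4.64 and 4.20 CPM, and GstD5, at 0.495, 1.30 and 1.19 CPM, were lowest in replicate 1. GstE9, which was not called (1.39 ± 0.71, edgeR adjusted p = 0.162), stood there at 14.7, 42.5 and 49.6 CPM. In control mCherry RNAi it stood at 8.02, 6.09 and 26.4 CPM, with sums of 2187, 1950 and 3582. The yolk protein gene Yp1, which defines the fat body list, ran from 0.523 to 7.62 CPM without TDP-43 and from 470.1 to 3735 with it. Yp1 is part of the sums. The median log2 fold change of the 12 markers was 1.73 with TDP-43 under mCherry RNAi. Whether the sums follow the amount of fat body tissue was not tested. The part of the fat body signal in these GST values was not tested.

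Of 7 tested gut markers 0 were called by edgeR with TDP-43 under mCherry RNAi, 6 had an unadjusted p below 0.05 and DESeq2 called 1. The gut sums were 13.1, 1192 and 42.7 CPM in TDP-43 mCherry RNAi and 26.5, 473.5 and 17.9 CPM in TDP-43 Atx2 RNAi. They were 6.07 to 8.47 CPM in control mCherry RNAi and 8.01 to 34.8 in control Atx2 RNAi. The defining gut protease gene Jon25Bi had 0 counts in all libraries but replicate 2 of control mCherry RNAi, which had 1. The 2 libraries with the highest gut sums were the highest for GstT4 in their groups. Without them, in a setting added after the data were seen, the GstT4 value for TDP-43 with mCherry RNAi was 1.77 ± 0.38 (edgeR adjusted p = 0.00905), beside 2.59 with them. The part of gut signal in GstT4 was not tested further. The marker counts that follow are for TDP-43 with mCherry RNAi, where 19.2% of all genes rose and 18.3% fell. Of 11 muscle markers 4 rose and 0 fell, with sums of 125 to 267 CPM in control mCherry RNAi and 201 to 676 in TDP-43 mCherry RNAi, while GstS1 fell. Of 10 neuronal markers 0 rose and 5 fell, with sums of 15920 to 16360 and 14500 to 15660 CPM. Of 11 glial markers 3 rose and 6 fell, with sums of 5331 to 5962 and 4753 to 5020 CPM. Of 9 hemocyte markers 0 rose and 1 fell. Of 12 photoreceptor markers 0 were called by edgeR, 0 had an unadjusted p below 0.05 and DESeq2 called 0. Their sums were 1571 to 2543 CPM in control mCherry RNAi and 1472 to 3583 in TDP-43 mCherry RNAi. The defining photoreceptor gene ninaE varied widely between libraries, from 122.9 to 392.1 CPM and from 56.95 to 1185 CPM in these groups. The part of neuronal or glial signal in the falls of GstD9, GstE2, GstD3, GstS1 and GstZ2 was not tested.

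**Figure D5:**
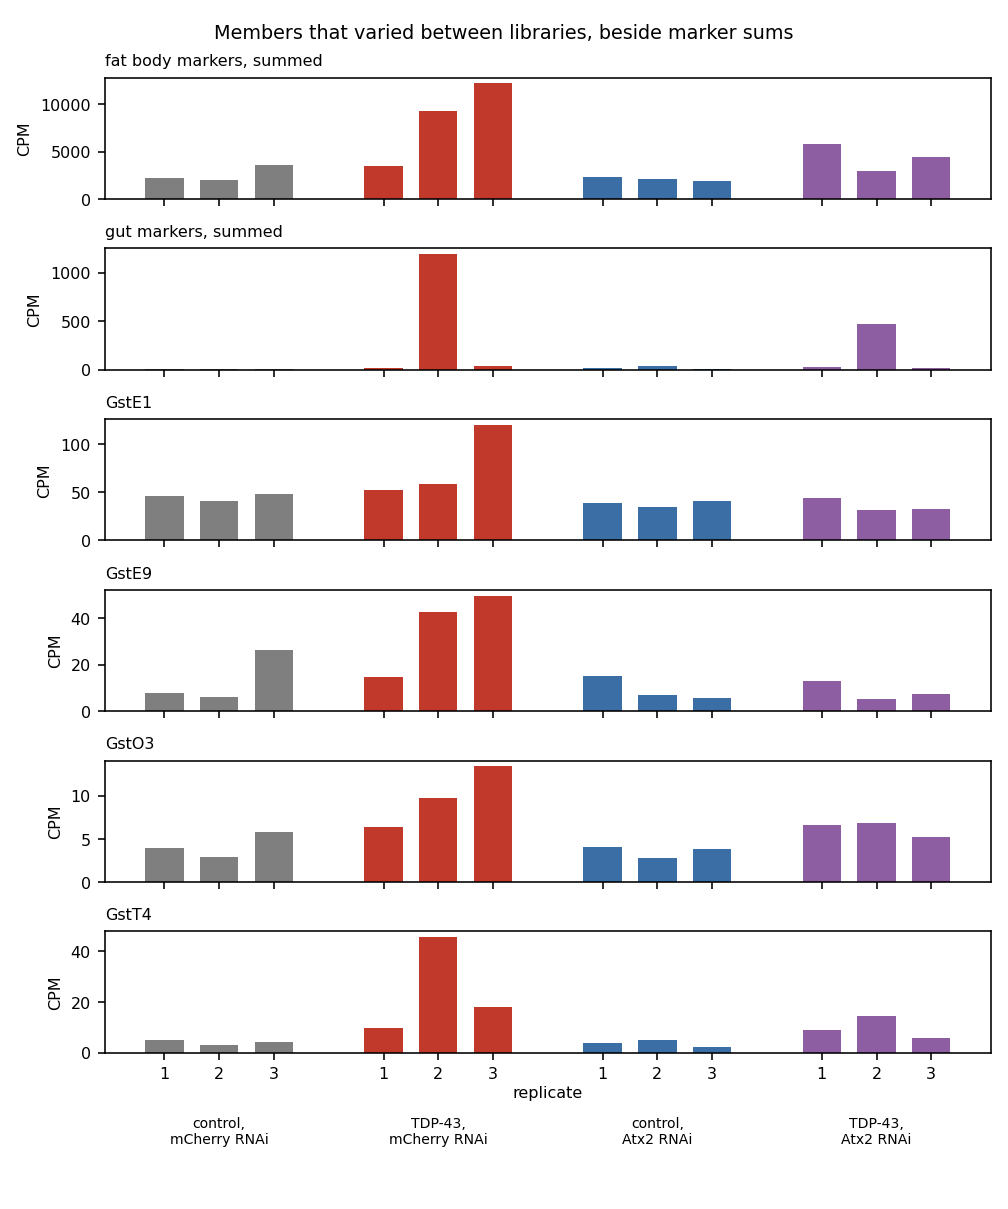
Summed CPM of 12 fat body markers and 12 gut markers (upper 2 panels) and CPM of GstE1, GstE9, GstO3 and GstT4 (lower 4 panels) in each of the 12 libraries, with bars from 0 and colours for the 4 groups. GstE9 and GstO3 are highest in replicate 3 of TDP-43 mCherry RNAi, where the fat body sum is highest at 12190 CPM, and GstT4 is highest in replicate 2, where the gut sum is highest at 1192 CPM.

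Genes of glutathione supply and recycling mostly rose where they were called with TDP-43 under mCherry RNAi. The list also holds thioredoxin and glutaredoxin genes, and Grx1 was among those that rose (0.25 ± 0.07, edgeR adjusted p = 0.0120). Of 15 tested genes of glutathione synthesis and recycling, 7 rose and 2 fell with TDP-43 under mCherry RNAi, beside the 19.2% and 18.3% of all genes, with a median of 0.23 beside 0.03 over all genes. Gss2, a glutathione synthetase gene, rose (0.46 ± 0.07, edgeR adjusted p = 3.44e-04), as did Eip55E of the pathway that makes cysteine (0.41 ± 0.06, edgeR adjusted p = 2.78e-04). Of the same list, CG4829 fell from 267 ± 26.5 to 110.4 ± 3.46 CPM (-1.27 ± 0.06, edgeR adjusted p = 5.16e-08). TDP-43 lowered it with the Atx2 hairpin in both groups, too (-0.92 ± 0.06, edgeR adjusted p = 8.67e-07). In that comparison 0 of the 15 rose and 2 fell, beside 12.1% and 10.4% of all genes. With Atx2 RNAi in TDP-43 flies 0 of the 15 rose and 3 fell, beside 7.68% and 6.36% of all genes, and with the replicate number as a block 1 rose and 4 fell. The 3 were Eip55E (-0.33 ± 0.06, edgeR adjusted p = 0.00416), Gss2 (-0.25 ± 0.07, edgeR adjusted p = 0.0349) and Gclc (-0.27 ± 0.05, edgeR adjusted p = 0.00527), which encodes the catalytic subunit of the rate-limiting enzyme of glutathione synthesis. Gclc was not called with TDP-43 under mCherry RNAi (0.11 ± 0.05, edgeR adjusted p = 0.105).

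Among 8 tested GST-like genes outside the named family, 2 rose and 1 fell with TDP-43 under mCherry RNAi, beside 19.2% and 18.3% of all genes. With Atx2 RNAi in TDP-43 flies 0 rose and 2 fell, beside 7.68% and 6.36%. Mgstl, a microsomal GST, fell with TDP-43 (-0.56 ± 0.15, edgeR adjusted p = 0.0122), and Clic, a GST-fold chloride channel protein, rose (0.66 ± 0.07, edgeR adjusted p = 3.64e-05). Of 5 genes of drosopterin pigment synthesis, 1 rose and 0 fell with TDP-43 under mCherry RNAi, beside 19.2% and 18.3% of all genes. The sepia gene se, which lies among the Omega genes and encodes the enzyme for a red eye pigment, was not called in any comparison (-1.06, edgeR adjusted p = 0.275 in the first).

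Of 15 regulators of detoxification genes, 4 rose and 2 fell with TDP-43 under mCherry RNAi, beside 19.2% and 18.3% of all genes. With Atx2 RNAi in TDP-43 flies 0 were called by edgeR, 1 had an unadjusted p below 0.05 and DESeq2 called 0. Without TDP-43 the counts were 0, 2 and 1. cnc, the fly counterpart of Nrf2, stood at 155 ± 11.5 CPM in control mCherry RNAi and 177 ± 32.4 in TDP-43 mCherry RNAi (0.20 ± 0.11, edgeR adjusted p = 0.179). Met, a juvenile hormone receptor gene, rose (0.45 ± 0.06, edgeR adjusted p = 8.36e-05), as did kay, the fly Fos gene (0.42 ± 0.08, edgeR adjusted p = 0.00213), and the nuclear receptor gene Hr96, which responds to xenobiotics, fell (-0.37 ± 0.06, edgeR adjusted p = 8.91e-04).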

How the data were processed

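The authors deposited a table of raw read counts per gene, whole numbers with no normalisation, for 12 libraries. All 12 columns belonged to a labelled library and 0 to none. Trim Galore, SAMtools, STAR 2.7.3a and DESeq2 appear in the submitters' processing notes, with the build dm6. The strand setting and the handling of reads that match several genes are not given in the sources used here, so that values of overlapping genes (GstE1 and GstE10, GstE9 and imd, GstE12 and CG3894, GstE13 and CG18659, GstO2 and se, GstT2 and CG12926) and of near-identical copies are uncertain. The stranded library kit is stated per the labels' protocols. Positions and exon lengths come from the Ensembl annotation of the same build.

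The tests used edgeR 4.0.16 under R 4.3.3. The filterByExpr step took out 6824 genes with few counts. TMM scaling gave factors from 0.962 to 1.033. Group means were fitted in 1 model of the 12 libraries, which left 8 residual degrees of freedom. Each of 6 comparisons was tested by the quasi-likelihood F-test with robust dispersion, with Benjamini-Hochberg adjustment across all tested genes. Members, gene lists, tests and the rule for naming genes were chosen with earlier results of these data known. Every member may be named, and values in every library, or counts for GstD5, are given for members that were called with groups that did not overlap and for other members that the text turns on. Other genes named are those inside or the nearest tested ones on each side of a cluster of members, up to 3 called genes of a list and its defining gene, and Atx2. Floors and intervals cover counting error only. The alternatives were median-of-ratios scaling, DESeq2 1.42.0, no filter, a filter of 1 CPM in 3 libraries, only the groups compared, the replicate number as a block and each library left out. In 2 comparisons every correlation of same-numbered libraries, in their deviations from the group means, was over 0.1. These were Atx2 RNAi with TDP-43 (0.193 to 0.623) and TDP-43 with Atx2 RNAi (0.144 to 0.399). Over all pairs of groups, 8 of 18 same-numbered and 9 of 36 other library pairs were over 0.1, the others reaching 0.392. The value of 0.623 joins the 2 libraries highest in gut markers. Whether the numbers pair the libraries is therefore not settled, and the labels do not say. Values with the block are given for these 2 comparisons where they change a call. Of these steps, only the edgeR test of TDP-43 with mCherry RNAi was tried on simulated counts. That simulation had far fewer changed genes than were called here and the same dispersion for every gene.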

Additional observations from a re-analysis of the deposited data

Results flagged for a closer look

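GstD2 was singled out because the effect of TDP-43 differed between the hairpins in a test of that difference itself. The interaction was -2.86 ± 0.41 on the log2 scale (edgeR adjusted p = 0.0137). In control flies the groups stood at 0.703 ± 0.259 CPM (SD, n = 3) with mCherry RNAi and 1.00 ± 0.132 with Atx2 RNAi, and in TDP-43 flies at 4.64 ± 1.30 and 0.905 ± 0.0662. The difference was in the same direction in all 17 alternatives that gave a value and was not called in 3 of them: without replicate 2 of TDP-43 Atx2 RNAi (edgeR adjusted p = 0.0645), without replicate 3 (0.0542), and without both libraries highest in gut markers (0.0876). The fat body sums tended in the same direction as GstD2 between the TDP-43 groups but overlapped. They were 3471 to 12190 CPM with mCherry RNAi and 2980 to 5798 with Atx2 RNAi. In replicates 1, 2 and 3 of TDP-43 mCherry RNAi the sums were 3471, 9285 and 12190 CPM. GstD2 stood at 4.04, 3.74 and 6.14 CPM in these libraries. In replicates 1, 2 and 3 of TDP-43 Atx2 RNAi the sums were 5798, 2980 and 4443 CPM. There GstD2 stood at 0.957, 0.831 and 0.929 CPM. The part of the fat body signal in GstD2 was not tested.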

How the results depend on the processing

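None of the 43 called differences of members changed sign under the 19 alternatives, and 49 of the 149 uncalled ones did in at least 1, none of them called there. Of the called members, 9 of 12 (TDP-43 with mCherry RNAi), 4 of 8 (Atx2 RNAi with TDP-43), 0 of 1 (Atx2 RNAi without TDP-43), 6 of 9 (TDP-43 with Atx2 RNAi), 9 of 12 (both together) and 0 of 1 (interaction) were called in every alternative. For Atx2 RNAi with TDP-43, fitting only the 2 groups gave 4 members and 891 genes in all. Leaving out the 2 libraries highest in gut markers, chosen after seeing the data, gave 5 members and 480 genes there. It gave 0 members and 465 genes for Atx2 RNAi without TDP-43, and 0 members and 7 genes for the interaction. Without a filter on low counts, Atx2 RNAi without TDP-43 called 0 members and 566 genes. DESeq2 called 2 members (GstD1 and GstD9) and 533 genes for the interaction.

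When each library was left out, called members ran from 10 to 14, 4 to 10, 0 to 1, 6 to 11, 9 to 12 and 0 to 1 in the 6 comparisons in the order above, and all called genes from 3194 to 4205, 746 to 1679, 292 to 802, 1636 to 2595, 2298 to 3268 and 10 to 74. The lowest counts of genes came without replicate 2 of TDP-43 Atx2 RNAi for the second comparison and the interaction, and without replicate 1 of control Atx2 RNAi for the third. Same-numbered libraries did not deviate together in every pair for TDP-43 with mCherry RNAi, Atx2 RNAi without TDP-43 and both together (1, 0 and 0 of 3 pairs with a correlation over 0.1), where the numbers were not taken to pair them. With the replicate number as a block, 11, 9, 1, 9, 12 and 1 members were called. In the same order, 4258, 1718, 712, 2540, 3203 and 138 of all genes were called. GstD9 (edgeR adjusted p = 0.0446) was called in place of GstD11 (0.0525) for Atx2 RNAi without TDP-43. GstE11 was no longer called for TDP-43 with mCherry RNAi (edgeR adjusted p = 0.0644). For the 2 comparisons where every same-numbered pair was over 0.1, the block changed the calls of GstT1, GstZ2 and GstD11 given above and of no other member. The cause of these shifts was not tested. Depth limits GstD4, GstD6 and GstD7, which could not be tested, and GstD5, GstD8, GstE4, GstE5, GstE10 and GstE14, with at most 50 counts per library.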
